A study of Arabidopsis thaliana with 11 samples.

Results

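The root meristem growth factor (RGF) pathway was followed through 8 genes of 28495 measured in Arabidopsis thaliana root tips. They were selected by locus identifier as a known pathway, not by a threshold on their values: the peptide genes RGF1, RGF2 and RGF3, the receptor genes RGFR1, RGFR2 and RGFR3, the sulfotransferase gene TPST and the transcription factor gene RITF1. All 8 identifiers were present in each of the 3 tables. The samples were root tips of coryne-3 (crn-3, 2 samples), clavata2-gabi (clv2-gabi, 3 samples) and cle40-2 (3 samples), set against wild-type Col-0 (3 samples). All 4 groups had the Col-0 genetic background and were grown upright on sucrose-containing agar under constant light. The sources used here give neither plant age, nor the number of plants per sample, nor what the alleles do. CRN encodes a membrane-bound kinase-like partner of the receptor-like protein CLV2, and CLE40 a secreted CLE peptide. The series title sets the CLE40 and the CRN/CLV2 pathways against each other in root meristem growth, and the question here was whether the RGF genes differed between these mutants and Col-0.

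RGF peptides, also called GOLVEN (GLV) peptides, are secreted signals that maintain the root stem cell niche and the dividing zone of the root tip. Their precursors are cleaved, and TPST, the tyrosylprotein sulfotransferase of the Golgi, adds a sulfate to a tyrosine that follows an aspartate in the mature peptide. The peptides bind leucine-rich repeat receptor kinases at the plasma membrane, which act with SERK co-receptors and a MAP kinase cascade. Downstream, the pathway raises PLETHORA (PLT) protein, the dosage factor of the root meristem. RITF1, a PLATZ-type transcription factor, links the RGF1 signal to reactive oxygen species in the meristem.

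The peptide-coding ends of the 3 RGF genes are shown because the tyrosine that TPST modifies lies there and because they show how far apart the family members are as transcripts. Each run goes from the last aspartate-tyrosine codon pair, in capitals, to the stop codon, 5′ to 3′ on the coding strand, from the TAIR10.1 assembly.
RGF1 (chr5:24466531-24466572, minus strand): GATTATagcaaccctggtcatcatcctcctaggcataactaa
RGF2 (chr1:4669184-4669225, plus strand): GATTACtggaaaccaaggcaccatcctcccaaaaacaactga
RGF3 (chr2:1276899-1276940, minus strand): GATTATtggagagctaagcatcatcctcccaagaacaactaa
All 3 ends span 42 bases within 1 exon. RGF2 and RGF3 shared 34 of these bases, RGF1 and RGF3 30, and RGF1 and RGF2 28. Every 50-base window within an exon of the 8 genes occurred once in TAIR10.1, so such a stretch has no second exact match there. Windows across exon junctions and inexact matches were not counted.

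The 8 genes lay on 4 chromosomes of TAIR10.1. RGF1 (AT5G60810) spanned chr5:24466509-24467215, RGF2 (AT1G13620) chr1:4668366-4669471 and RGF3 (AT2G04025) chr2:1276683-1277761. RGFR1 (AT4G26540) spanned chr4:13394447-13398307, RGFR2 (AT5G48940) chr5:19839663-19843859 and RGFR3 (AT5G56040, with the synonym SKM2 in the annotation) chr5:22694823-22698645. TPST (AT1G08030) spanned chr1:2489409-2493327 and RITF1 (AT2G12646) chr2:5166984-5169303. Of these, 2 overlapped a gene on the opposite strand: RGF2 overlapped AT1G13630, and RGFR1 overlapped the noncoding gene AT4G26542. The sources used here do not say whether counting used strand, so reads of each such pair may not be told apart.

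All values of single genes are the authors' own. Each deposited table gives, for 1 mutant and Col-0, the group means of normalised read counts rounded to whole numbers, the fold change (mutant over Col-0) and an adjusted p-value, with no value per sample, so that no spread between samples can be given and depth per sample is unknown. The 3 tables share the same Col-0 samples but were scaled separately, and Col-0 means were 1.08 times as high in the clv2-gabi and in the cle40-2 table as in the crn-3 table, so each mutant was compared with the Col-0 means of its own table. A gene was called changed at an adjusted p under 0.05 in the authors' deposited table. Nothing says that the samples of a genotype were separate cultures, and the p-values then cover only sample-to-sample spread, which may be technical.

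The root meristem and root cap markers were present, while the transcripts of CRN and CLE40 gave no check of the labels. In the authors' deposited tables, 9 root markers (PLT1, PLT2, WOX5, SCR, SHR, SMB, BRN1, BRN2 and FEZ) summed to between 6660 and 7001 in the mutants, against 6015 to 6518 in Col-0, and none was called. Per the authors' deposited tables, CRN had a mean of 111 in the libraries labelled crn-3, against 91 in Col-0, and CLE40 a mean of 3 in the libraries labelled cle40-2, against 1 in Col-0, neither called. CLV2 had, in the authors' deposited table, a mean of 4248 in the libraries labelled clv2-gabi, against 198 in Col-0 (adjusted p printed as 0). This direction is opposite to a loss of transcript. In the authors' deposited tables CLV2 was at 206 in crn-3 against 184 in Col-0 and 248 in cle40-2 against 199, neither called. The CLV2 rise thus set the libraries labelled clv2-gabi apart. Leaf and seed transcripts moved with the cle40-2 libraries in the authors' deposited table. There the 4 leaf and shoot markers summed to 316 in cle40-2, against 8 in Col-0, with the calls made by RBCS1A and LHCB2.1. The shoot markers STM (6 in cle40-2 against 7 in Col-0) and WUS (0 in both) were not raised in the authors' deposited table. In that deposited table of the authors, the seed storage genes CRA1 and CRU3 summed to 450 in cle40-2, against 0 in Col-0, and both were called. In the other tables these marker sums were at most 15 in a mutant and at most 8 in Col-0, with CRU3 called in crn-3 at a mean of 15 against 0. The part of these transcripts in the cle40-2 values given below was not tested.

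None of the 8 genes was called in any mutant. In the authors' deposited tables, made with DESeq per the submitters' processing notes, 0 of 8 were called in crn-3, where 0.439% of 22793 genes with an adjusted p were called. In clv2-gabi 0 of 8 were called, where 1.89% of 22987 genes were. In cle40-2 0 of 8 were called, where 5.15% of 23602 genes were. Against these shares a count of 0 among 8 genes is near the background. All 8 had a mean of at least 10 in each table. The tables hold no unadjusted p-values, and the rounded means cannot enter a second count model. The median fold change of the 8 genes was 1.01 in crn-3, 1.06 in clv2-gabi and 1.08 in cle40-2, against a median of 1 over all genes tested in each table. The fold changes of the 8 were 0.92 to 1.15 in crn-3, 0.96 to 1.26 in clv2-gabi and 0.83 to 1.26 in cle40-2. In bulk root tips, fewer cells of a type and less RNA per cell cannot be told apart.

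**Figure D1:**
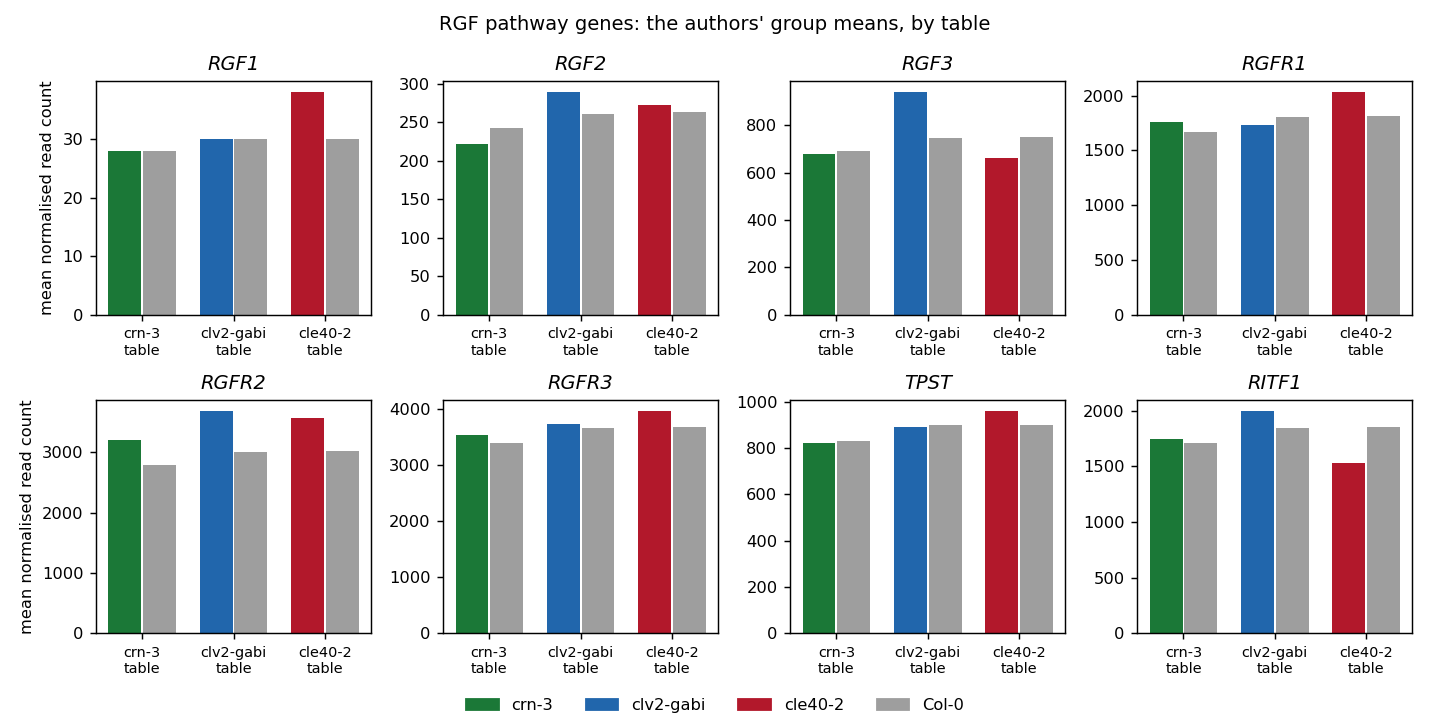
Mean normalised read count (linear axis from 0) of the 8 RGF pathway genes in the authors' deposited tables, as a pair of bars per table with the mutant in colour on the left and Col-0 in grey on the right. No error bars can be drawn because the tables hold no values per sample. As a difference in read count, the widest gap within a pair is that of RGFR2 in clv2-gabi (3691 against 3001). As a ratio, RGF3 in clv2-gabi (939 against 744) and RGF1 in cle40-2 (38 against 30) lie farthest from Col-0, and none of these was called.

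Among the 3 peptide genes, RGF3 had the highest level, also per kb, and the widest range of fold changes over the tables. RGF3 had, in the authors' deposited tables, a mean of 678 in crn-3 against 690 in Col-0, of 939 in clv2-gabi against 744 in Col-0, and of 660 in cle40-2 against 748 in Col-0. Its mean was thus above Col-0 in clv2-gabi and below it in crn-3 and cle40-2, and the authors' deposited tables gave fold changes of 0.98 in crn-3, 1.26 in clv2-gabi (adjusted p = 0.452) and 0.88 in cle40-2 (adjusted p = 0.847). Its fold change in clv2-gabi lay outside the range that held the central 95% of genes of a like mean, 0.78 to 1.20 over 2401 genes whose mean lay within 25% of its own. Such a range includes genes that truly changed and is not the error of any 1 gene. At this mean, the smallest rise called in clv2-gabi in the authors' deposited table was 1.43-fold and the smallest fall was to 0.72 of Col-0. Whether the clv2-gabi and cle40-2 values of RGF3 differ from each other was not tested, since both were set against the same Col-0 samples and the tables hold no values per sample.

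RGF2 had an intermediate level that stayed near Col-0. Its means in the authors' deposited tables were 222 in crn-3 against 242 in Col-0, 289 in clv2-gabi against 261 in Col-0, and 272 in cle40-2 against 263 in Col-0. The fold changes were 0.92, 1.11 and 1.03 in the same order of mutants, each with an adjusted p of 1 in the authors' deposited tables. The gene on its opposite strand, AT1G13630, had, in the authors' deposited tables, means of 80 in crn-3 against 63 in Col-0, 98 in clv2-gabi against 68 in Col-0, and 75 in cle40-2 against 69 in Col-0, with no call.

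RGF1 was low in all groups. In the authors' deposited tables its mean was 28 in crn-3 against 28 in Col-0, 30 in clv2-gabi against 30 in Col-0, and 38 in cle40-2 against 30 in Col-0 (1.26-fold, adjusted p = 0.866). The mean was thus above Col-0 in cle40-2 and equal to it, as printed, in crn-3 and clv2-gabi. In cle40-2, the central 95% of 819 genes of a like mean ran from 0.39 to 8.12, and the smallest rise called was 2.07-fold in the authors' deposited table. In crn-3 it was 4.72-fold. Rises smaller than these were not called among genes at this level.

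Of the receptor genes, RGFR2 and RGFR3 had a mean above Col-0 in each mutant and RGFR1 in crn-3 and cle40-2, with no call. RGFR2 had, in the authors' deposited tables, a mean of 3203 in crn-3 against 2783 in Col-0, of 3691 in clv2-gabi against 3001 in Col-0, and of 3573 in cle40-2 against 3015 in Col-0. The fold changes were 1.15 in crn-3 (adjusted p = 1), 1.23 in clv2-gabi (adjusted p = 0.638) and 1.19 in cle40-2 (adjusted p = 0.533) in the authors' deposited tables. The same Col-0 samples stand behind all 3 values. In size, the RGFR2 change exceeded that of 93.6% of 1051 genes of a like mean in crn-3, of 96.6% of 1028 in clv2-gabi and of 86.5% of 1045 in cle40-2. It lay just above the central 95% of such genes in crn-3 (upper end 1.13) and above it in clv2-gabi (upper end 1.16), and within it in cle40-2 (upper end 1.33). Called rises were few at this mean: 1 gene in crn-3 at 1.92-fold, 1 in clv2-gabi at 2.7-fold, and 22 in cle40-2 from 1.35-fold upward in the authors' deposited tables.

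RGFR3 and RGFR1 were closer to Col-0. RGFR3 had, in the authors' deposited tables, a mean of 3532 in crn-3 against 3397 in Col-0, of 3734 in clv2-gabi against 3664 in Col-0, and of 3964 in cle40-2 against 3679 in Col-0. Its fold changes of 1.04, 1.02 and 1.08 spanned the narrowest range of the 8 genes over the 3 tables. RGFR1 had, in the authors' deposited tables, a mean of 1761 in crn-3 against 1672 in Col-0, of 1729 in clv2-gabi against 1803 in Col-0, and of 2031 in cle40-2 against 1811 in Col-0. Its largest change in the authors' deposited tables was the 1.12-fold value in cle40-2 (adjusted p = 0.782), and in clv2-gabi the mean lay below Col-0 at 0.96. The noncoding gene that overlaps RGFR1, AT4G26542, had means of at most 3 in the authors' deposited tables.

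TPST, the enzyme that sulfates RGF, phytosulfokine (PSK) and PSY1 peptides, stayed near Col-0. Its means in the authors' deposited tables were 821 in crn-3 against 831 in Col-0, 889 in clv2-gabi against 897 in Col-0, and 961 in cle40-2 against 901 in Col-0. The fold changes were 0.99, 0.99 and 1.07, with an adjusted p of 1 in each table. In cle40-2, the smallest rise called among 2359 genes of a like mean was 1.37-fold and the smallest fall was to 0.71 of Col-0, in the authors' deposited table.

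RITF1 had the lowest adjusted p of the 8 genes, in cle40-2. Its mean in the authors' deposited tables was 1749 in crn-3 against 1708 in Col-0, 2002 in clv2-gabi against 1842 in Col-0, and 1534 in cle40-2 against 1852 in Col-0. The mean was thus close to Col-0 in crn-3, above it in clv2-gabi and below it in cle40-2. The authors' deposited table gave a fold change of 0.83 in cle40-2 (adjusted p = 0.401), within the central 95% of 1770 genes of a like mean (0.77 to 1.31) and short of the smallest fall called there, 0.73. In crn-3 and clv2-gabi its fold changes were 1.02 and 1.09 with an adjusted p of 1 in the authors' deposited tables. Of 11 further PLATZ genes named so by their product in TAIR10.1, 0 were called in any table. That is near the shares called over all genes, 0.439% in crn-3, 1.89% in clv2-gabi and 5.15% in cle40-2. Of these 11, AT4G17900 had the highest read count. Its means in the authors' deposited tables were 270 in crn-3 against 338 in Col-0, 282 in clv2-gabi against 364 in Col-0, and 336 in cle40-2 against 366 in Col-0.

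**Figure D2:**
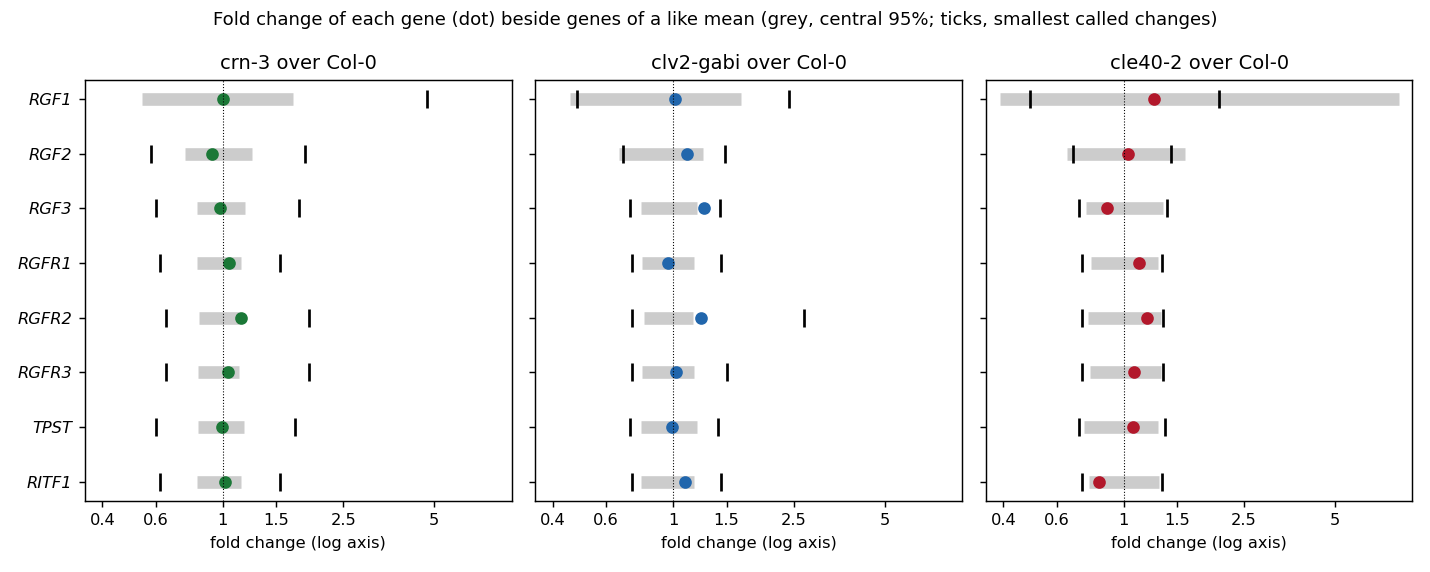
Fold change of each gene (dots, mutant over Col-0, log axis) in the authors' deposited tables, 1 panel per mutant. The grey bar is the central 95% of fold changes of genes whose mean lies within 25% of that gene's, and the black ticks mark the smallest rise and the smallest fall called among those genes. All dots lie between the ticks (no fall was called near the mean of RGF1 in crn-3), and RGFR2 in crn-3 and clv2-gabi and RGF3 in clv2-gabi lie beyond the right end of their grey bar.

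To compare levels between genes, each mean was divided by the length of the gene's exons. In the crn-3 samples RITF1 had the highest level per kb, 1246, followed by RGFR3 at 924, RGFR2 at 879, RGF3 at 808, RGFR1 at 466, TPST at 370, RGF2 at 279 and RGF1 at 48.1. In Col-0 of the same table the levels per kb were 1217 for RITF1, 889 for RGFR3, 822 for RGF3, 764 for RGFR2, 442 for RGFR1, 375 for TPST, 304 for RGF2 and 48.1 for RGF1. The transcript of RGF1 was thus the lowest and those of RITF1, RGF3, RGFR2 and RGFR3 were the highest, and the same lowest 4 in the same order (RGFR1, TPST, RGF2, RGF1) were found in every group of every table. Among the upper genes the order per kb of exon changed between groups. Per coding length, RGF3, RGFR3 and RGFR2 kept 1 order in all groups. In clv2-gabi RGF3, with 1119 per kb, came directly after RITF1, with 1426. In cle40-2 RGF3, with 787 per kb, came after RITF1 with 1093, RGFR3 with 1037 and RGFR2 with 980. With no value per sample, it cannot be said which neighbours in these orders differ beyond the spread of samples. Of the summed level per kb of RGF1, RGF2 and RGF3, RGF3 made up 71.2% in crn-3, 73.0% in clv2-gabi and 65.9% in cle40-2, against 70.0% to 70.1% in Col-0.

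**Figure D3:**
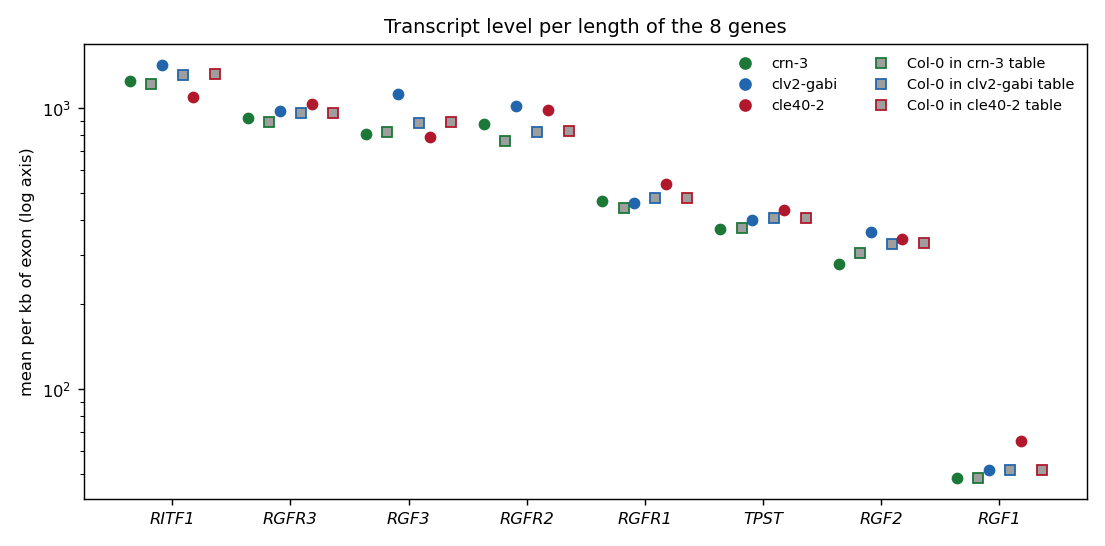
Mean normalised read count per kb of exon (log axis) for the 8 genes, ordered by the level in Col-0 of the crn-3 table. Circles are mutants and grey squares with a coloured edge are the Col-0 means of the same table. RITF1 is highest in every group and RGF1, at 48.1 to 65.3 per kb, lowest.

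The rest of the RGF peptide family held the 1 peptide gene that was called. The annotation names 11 GOLVEN genes, of which RGF1, RGF2 and RGF3 are part. Of the 11, 9 had an adjusted p, and RGF6 and RGF9 were listed at 0 in every group. Of the 9, 1 was called in cle40-2, where 5.15% of all genes were. In crn-3 and clv2-gabi 0 of 9 were called, against 0.439% and 1.89% of all genes. GLV9 (AT5G15725, chr5:5127375-5128418) fell, per the authors' deposited table, to a mean of 56 in cle40-2, against 194 in Col-0 (fold change 0.29, adjusted p printed as 0). It had, in the authors' deposited tables, means of 155 in crn-3 against 179 in Col-0 and of 209 in clv2-gabi against 193 in Col-0, with fold changes of 0.87 and 1.08, each with an adjusted p of 1. GLV9 was looked up through the annotation's family name and singled out after its values were seen. In size, its change in cle40-2 exceeded that of 98.5% of 1347 genes of a like mean, of which 10.2% were called. The leaf and seed transcripts described above were raised in the same libraries, and their part in this value was not tested. No second locus exactly matched any 50-base window within its exons, and no annotated gene overlapped it. Of its 2 measured neighbours on each side, only AT5G15740, 6089 bases away, was called, at 0.71 of Col-0 in cle40-2 per the authors' deposited table (adjusted p = 0.047). The coding sequence of GLV9 held no in-frame aspartate-tyrosine codon pair. Its last 42 bases are given. They were cut by length, not at a codon pair, so they are not aligned with the ends of RGF1, RGF2 and RGF3 above.
GLV9 (chr5:5128180-5128221, plus strand): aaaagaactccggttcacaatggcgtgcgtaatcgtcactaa

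The other RGF peptide genes were not called. RGF4 had the highest read count of them, and the authors' deposited tables gave it means of 500 in crn-3 against 539 in Col-0, 648 in clv2-gabi against 581 in Col-0, and 550 in cle40-2 against 584 in Col-0. RGF8 had, in the authors' deposited tables, means of 302 in crn-3 against 282 in Col-0, 337 in clv2-gabi against 304 in Col-0, and 332 in cle40-2 against 306 in Col-0. RGF7 was low and had fold changes of 0.68 in crn-3, 0.52 in clv2-gabi (adjusted p = 0.299) and 1.61 in cle40-2 (adjusted p = 0.296) in the authors' deposited tables. Its means there were 22 in crn-3 against 32 in Col-0, 18 in clv2-gabi against 34 in Col-0, and 55 in cle40-2 against 35 in Col-0. RGF5 had, in the authors' deposited tables, a mean of 21 in crn-3 against 17 in Col-0, of 22 in clv2-gabi against 18 in Col-0, and of 26 in cle40-2 against 18 in Col-0. GLV8 had means of at most 4 in the authors' deposited tables.

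**Figure D4:**
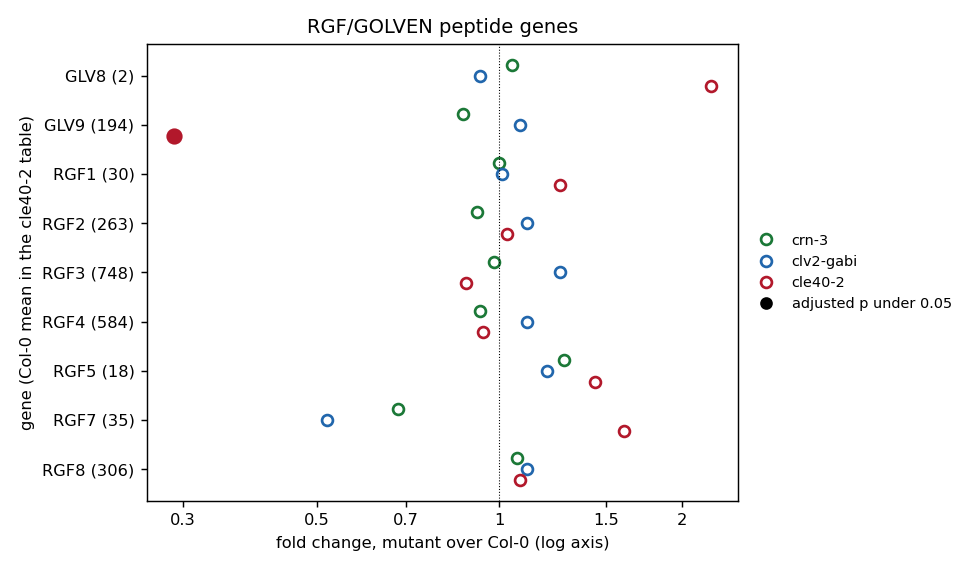
Fold change (mutant over Col-0, log axis) of the 9 RGF and GOLVEN peptide genes with an adjusted p, from the authors' deposited tables, with the Col-0 mean of the cle40-2 table in brackets. Filled symbols are called genes and open symbols are not. GLV9 in cle40-2, at 0.29, is the 1 filled symbol, and the widest open ones belong to genes with Col-0 means of 35 or less.

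Further receptor-side genes were not called. The leucine-rich repeat receptor kinase genes AT3G24240 and AT1G34110 were listed with the RGF receptors. AT1G34110 had, in the authors' deposited tables, means of 1586 in crn-3 against 1286 in Col-0, 1732 in clv2-gabi against 1387 in Col-0, and 1759 in cle40-2 against 1393 in Col-0. The authors' deposited tables gave it fold changes of 1.23, 1.25 (adjusted p = 0.613) and 1.26 (adjusted p = 0.264), none called. Its mean was thus above Col-0 in each mutant, as was that of AT3G24240. AT3G24240 had, in the authors' deposited tables, means of 5248 in crn-3 against 4578 in Col-0, 5716 in clv2-gabi against 4937 in Col-0, and 5101 in cle40-2 against 4959 in Col-0. Of the SERK co-receptor genes SERK1, SERK2, BAK1 and SERK4, 0 of 4 were called in any table, with fold changes from 0.94 to 1.14. That count is near the shares called over all genes, 0.439% in crn-3, 1.89% in clv2-gabi and 5.15% in cle40-2. The authors' deposited table of cle40-2 gave BAK1, the SERK gene with the highest read count, a mean of 2413 in cle40-2 against 2147 in Col-0.

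The other listed genes of RGF processing and signalling, and UPB1, held 1 called gene. That was in cle40-2, where 5.15% of all genes were called. Of the PLETHORA genes PLT1, PLT2, PLT3 and BBM, PLT3 was called in cle40-2, where the authors' deposited table gave it a mean of 2463, against 1761 in Col-0 (1.4-fold, adjusted p = 0.03). PLT1 had, in the authors' deposited tables, a mean of 999 in crn-3 against 829 in Col-0, of 1080 in clv2-gabi against 894 in Col-0, and of 1009 in cle40-2 against 898 in Col-0, with no call. PLT2 had fold changes of 1.13 in crn-3, 1.09 in clv2-gabi and 0.97 in cle40-2 in the authors' deposited tables. Those of BBM were 1.02, 1.02 and 0.89 in the same order, and neither gene was called. PLT2 and BBM were thus below Col-0 in cle40-2. PLT protein was not measured. UPB1, a repressor of peroxidase genes that sets reactive oxygen balance in the root tip, had fold changes of 0.81 in crn-3, 0.70 in clv2-gabi (adjusted p = 0.137) and 1.21 in cle40-2 (adjusted p = 0.647) in the authors' deposited tables. Of the MAP kinase genes YDA, MKK4, MKK5, MPK3 and MPK6, 0 of 5 were called in any table, with fold changes from 0.87 to 1.15. That count too is near the shares called over all genes, 0.439% in crn-3, 1.89% in clv2-gabi and 5.15% in cle40-2. MPK6 had, in the authors' deposited table, a mean of 2693 in cle40-2 against 2820 in Col-0. The ubiquitin protease genes UBP12 and UBP13, whose products stabilise RGFR1, had fold changes from 0.99 to 1.09. S1P, a subtilase gene whose product cleaves a GOLVEN precursor, and TPP2, a further subtilase gene, had fold changes from 0.98 to 1.16.

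Genes of other sulfated peptides share TPST with the RGF pathway. Of 6 PSK and PSY1 peptide genes, 0 were called in any table. PSK1 had the highest read count, with means in the authors' deposited tables of 522 in crn-3 against 584 in Col-0, 508 in clv2-gabi against 630 in Col-0, and 768 in cle40-2 against 634 in Col-0. Of the receptor genes PSKR1, PSKR2, PSY1R, GSO1 and GSO2, 0 of 5 were called. PSKR1 and PSKR2 had the highest read counts of these, with fold changes from 1.10 to 1.23 in the authors' deposited tables. GSO1, a receptor gene of the endodermal barrier, had, in the authors' deposited table, a mean of 282 in cle40-2 against 208 in Col-0 (adjusted p = 0.184). GSO1 was below Col-0 in the authors' deposited tables of crn-3 (163 against 192) and clv2-gabi (185 against 207), neither called. Over all 37 further listed genes, of which 35 had an adjusted p, 0 were called in crn-3, 0 in clv2-gabi and 1, PLT3, in cle40-2. The shares called over all genes were 0.439%, 1.89% and 5.15%, so these counts are near the background. The median fold changes of the listed genes were 1.03, 1.02 and 1.06, against a median of 1 over all genes tested in each table. GLV8, GLV9 and the PLATZ genes described above stood outside these lists, and of them GLV9 was called, in cle40-2.

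Of the 32 genes flanking the 8 members, 2 on each side, 0 of 23 with an adjusted p were called in crn-3, 0 of 25 in clv2-gabi and 1 of 26 in cle40-2, where 5.15% of all genes were. The called gene was FBA7 (AT4G26520), an aldolase gene 3585 bases from RGFR1, with means in the authors' deposited table of 55 in cle40-2 against 19 in Col-0 (2.84-fold, adjusted p = 0.001). RGFR1 itself was at 1.12 in that table.

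The genes most like each member were sought among 15429 genes whose mean was 50 or more in every group, by the Euclidean distance over the 3 log2 fold changes, 1 for each mutant, which share the Col-0 samples. RGF1 was below that mean and was left out, so 7 members entered. The 3 genes nearest to RGF3 were AT1G27410 (distance 0.04), AT1G18265 (0.08) and RLP34 (0.08). Nearest to RGFR2 were AT3G62010 (0.03), PMR6 (0.03) and AT4G36790 (0.04), and nearest to RITF1 were AT1G80940 (0.02), AT1G66345 (0.02) and AT1G43770 (0.02). SCR, the ground tissue regulator, was among the 3 nearest to RGFR3 (0.01), with fold changes of 1.05, 1.02 and 1.08 in the authors' deposited tables, beside AT4G01210 (0.01) and SUVR1 (0.01). Nearest to RGFR1 were AT4G12070 (0), PSS1 (0.01) and CAD1 (0.01), to TPST AT2G20010 (0.01), SQD2 (0.01) and NTMC2T2.1 (0.01), and to RGF2 AT5G49500 (0.02), AT2G17705 (0.03) and AT1G11930 (0.03). Of these genes, SCR was also on the list of root markers, and none was a member or on the other pathway lists. With fold changes this close to 1, many genes lie at such small distances.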

How the data were processed

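RNA of 11 root tip samples was sequenced on Illumina libraries, per the labels' protocols. The submitters' processing notes name CASAVA 1.8.2, DESeq without a version and the build TAIR10. Neither aligner nor counting tool nor annotation is given in the sources used here. The group values in the authors' deposited tables were treated as scores: means of normalised counts, rounded to whole numbers. The fold in the deposited tables is the authors' ratio of mutant to Col-0 mean, and for high means it departed from the quotient of the rounded means by 0.00566 at most. Adjusted p-values carry 3 decimals in the deposited tables, and how they were adjusted is not stated. Of genes with one, 98.6% had a value of 1 for crn-3, 91.4% for clv2-gabi and 47.1% for cle40-2. Genes without one were listed at 0 in both groups.

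No test was added: calls are the authors' adjusted p under 0.05. Log2 fold changes, ranges of genes of a like mean, and levels per kb were computed with Python 3.11.15, pandas 2.3.3 and numpy 2.4.6. The routine for likeness was tested on simulated data. That for like means was checked on simulated data against a second computation for only a few genes per table. Exon lengths, positions and sequences came from TAIR10.1, whose nuclear sequence is that of TAIR10. The tables carry no coordinates. Of the table identifiers, 28008 matched that annotation. The RGF receptors and RITF1 carry the names under which their loci were selected, since the annotation gives these loci no symbol of their own. AT2G16385 and AT4G34600, first listed as the sulfated peptide genes CIF1 and CIF2, were dropped (0 of 2 called in each table). The reason was only that the annotation describes neither as a peptide gene. AT3G24240 and AT1G34110, annotated as receptor-like kinases, and TPP2, annotated as a peptidase, were kept although the annotation does not tie them to RGF peptides. All members were named in every comparison. Of the other lists, called genes, RGF peptides, RGF receptors and otherwise the most abundant gene of a list were to be named. PLT1, PLT2, BBM and GSO1 were given values outside this rule. For members with a mean of at least 50 in every group, the 3 nearest genes by fold change were named. The members and lists were chosen with earlier results of these data known, and GLV8 and GLV9 were added after the values were seen.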

Additional observations from a re-analysis of the deposited data

How the results depend on the processing

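The count of members called was 0 in each mutant under an adjusted p under 0.1. It was also 0 under 0.01, with log2 changes of 1 or more in size, and with a mean of at least 10. These last settings only narrow the calls under 0.05, so their count of 0 was fixed in advance and adds nothing. Of the 24 log2 fold changes of the members, 22 kept their direction under each of 4 other ways of computing them. RGF1 in clv2-gabi, at 0.01, became 0 under each of the 4, RGF1 in crn-3 was 0 throughout, and 0 of 96 values took the opposite direction. These ways were the ratio of the printed means, 1 or 5 added to each mean, and the median of genes with a mean of at least 50 subtracted. Beyond rounding, only the subtraction of the median could reverse a direction, so the kept directions tell little. The log2 fold changes moved by at most 0.04. Per coding length instead of exon length, a setting chosen after the data were seen, the share of RGF3 among RGF1 to RGF3 was 73.0% in crn-3, 74.6% in clv2-gabi and 68.0% in cle40-2, against 71.8% in Col-0. The order of levels did change: RGF3 then stood above RGFR3 and RGFR2 in every group, and above RITF1 in clv2-gabi only. RGF2 stood above TPST, and TPST above RGFR1, in every group, while RGF1 stayed lowest. The differences between groups in the order of RGF3, RGFR2 and RGFR3 were thus found per exon length only. With genes of a like mean taken within 10% instead of 25%, also chosen later, 7 members in crn-3, 6 in clv2-gabi and 8 in cle40-2 lay within the central 95%, the same counts as at 25%. With the largest difference in place of the Euclidean distance, also chosen later, AT5G38040 replaced RLP34 beside RGF3 and AT4G09560 replaced PMR6 beside RGFR2, while the nearest genes of the other 5 members were the same. No paired analysis was possible because the tables hold group means only, and for the same reason no replicate could be left out. A mean may rest on 1 library, and depth per sample is unknown.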
